A study of Mus musculus with 30 samples.

Results

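The genes described here are the splicing factors and heterogeneous nuclear ribonucleoproteins (hnRNPs) on a mouse bead array. A probe was included when its gene symbol began with Hnrnp, Srsf, Sf3a, Sf3b, Snrp or Prpf, which gave 58 genes of 16593 with a symbol on the array, measured by 108 of its 25697 probes. By role they were 18 hnRNP genes (41 probes), 9 SR protein genes (16 probes), 11 Prpf genes (24 probes), 9 SF3a or SF3b genes (11 probes), 7 genes of the Sm core (10 probes) and 4 genes of proteins specific to the U1 or U2 particle (6 probes). The choice used gene symbols alone, but it was made with earlier results of these data known. The RNA came from liver and muscle of male C57BL/6J mice with no engineered allele, and there were 5 arrays for each tissue and diet, 30 in all. SRT2104 mice ate AIN-93G chow with 1.33 g of SRT2104, a synthetic activator of the deacetylase SIRT1, per kg, which was designed to deliver about 100 mg per kg of body weight a day. Calorie restricted (CR) mice received the same chow with intake reduced by 40%, and standard diet (SD) mice ate it freely. All diets began at 28 weeks of age. The descriptions of sampling differ between groups: CR mice are given as 41 weeks old after 14 weeks on the diet, the individual records of SRT2104 and SD mice place the harvest when life ended, and the series description takes 5 mice of each group after 41 weeks. The methods of the study give the age and diet duration of the CR records for the array mice of all groups. Only if the individual records hold would diet and age at sampling be impossible to tell apart in comparisons with CR.

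Splicing removes introns from pre-mRNA on the spliceosome, which is built from small nuclear RNAs and proteins. The Sm core proteins form a ring on each small nuclear RNA, SNRPA and SNRPC belong to the U1 particle that reads the start of the intron, and the SF3a and SF3b complexes hold the U2 particle at the branch point. The PRPF proteins assemble and drive the catalytic machine, while SR proteins mostly favour the use of an exon and hnRNPs coat the transcript and often oppose it. Many SR protein and hnRNP genes limit their own output through exons or introns that send the mRNA to decay, so a gene of this kind can have several transcripts that a 3' probe may or may not detect.

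Levels below are rescaled log2 values from the deposited scores, and a change is the difference of 2 group means on that scale with its standard error. Changes and overlaps of groups are therefore relative to the other probes of each array. A probe was tested in a tissue when its detection p was under 0.02 on at least 5 of the 15 arrays. This kept 73 probes of 47 member genes in liver and 75 probes of 45 member genes in muscle, of which 69 probes passed in both. Hnrnpa3, Hnrnpd, Hnrnpr, Hnrnpu, Prpf31, Prpf4b, Sf3a2, Sf3b1, Snrpb2, Snrpe and Srsf12 had no probe that passed in either tissue. A called change had an adjusted p under 0.05 (limma, Benjamini-Hochberg over all probes tested in that tissue). The tissue labels fitted the markers: 9 of 10 skeletal muscle marker genes passed detection in muscle and 1 in liver, and of 10 hepatocyte marker genes 7 passed in muscle and 9 in liver. All 8 hepatocyte marker probes tested in both tissues were lower in muscle than in liver on SD.

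In muscle 3 arrays stood apart, and muscle results are given with and without them where a count or a call turns on it. The median correlation with arrays of the same group was 0.903 for SRT2104 replicate 3, 0.811 for CR replicate 3 and 0.966 for SD replicate 1. Hepatocyte marker probes lay 7.34 log2 units above the SD mean on SRT2104 replicate 3, and skeletal muscle marker probes lay below it on CR replicate 3 (-1.16) and SD replicate 1 (-0.72). CR replicate 2, with a median correlation of 0.964, is part of the 12 arrays that remain, and on it adipocyte markers lay 3.15 and hepatocyte markers 1.57 log2 units above the SD mean. Without it alone 15 members were called for SRT2104 against SD, 10 for SRT2104 against CR and 0 for CR against SD, where all 15 arrays gave 15, 13 and 1. The median signal over the tested probes was 224 to 266 on the SRT2104 muscle arrays, 155 to 288 on the CR muscle arrays and 272 to 480 on the SD muscle arrays. Scaling gave each array the same mean and spread over these probes before any change was computed, but it did not correct for background. With background correction by neqc, 4 hnRNP probes were called lower in SRT2104 than in SD muscle, in place of 8. Because the samples are whole tissue, fewer cells of a type and less RNA per cell cannot be told apart.

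SRT2104 was accompanied in muscle by lower levels of a group of hnRNP probes, led by Hnrnpa2b1, Hnrnph1 and Hnrnpk, together with 1 probe each of the SR protein genes Srsf5 and Srsf10. Of the 75 member probes 2 were higher and 13 were lower than on SD, or 20% called against a background of 10.8% over all probes (3.78% higher and 6.99% lower). Without the 3 arrays that stood apart 9 member probes were higher and 20 lower, beside 17.5% and 14.3% of all probes. Leaving out CR replicate 3 alone gave 24 called members, and leaving out SRT2104 replicate 2 or 4 gave 9. The median change of the members was -0.04 and that of all probes +0.06. Among the families the hnRNP probes had 1 higher and 8 lower of 27, the SR protein probes 0 and 2 of 13, and the Sm core probes 0 and 2 of 9. The Prpf probes had 1 higher and 1 lower of 16, and no probe of SF3a or SF3b (6 probes) or of the U1 and U2 proteins (4 probes) was called. Over 12 arrays the counts were 3 higher and 10 lower for hnRNP probes, 0 and 4 for SR protein probes, 0 and 4 for the Sm core, 4 and 1 for Prpf, 1 and 0 for SF3a and SF3b, and 1 and 1 for the U1 and U2 proteins.

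**Figure D1:**
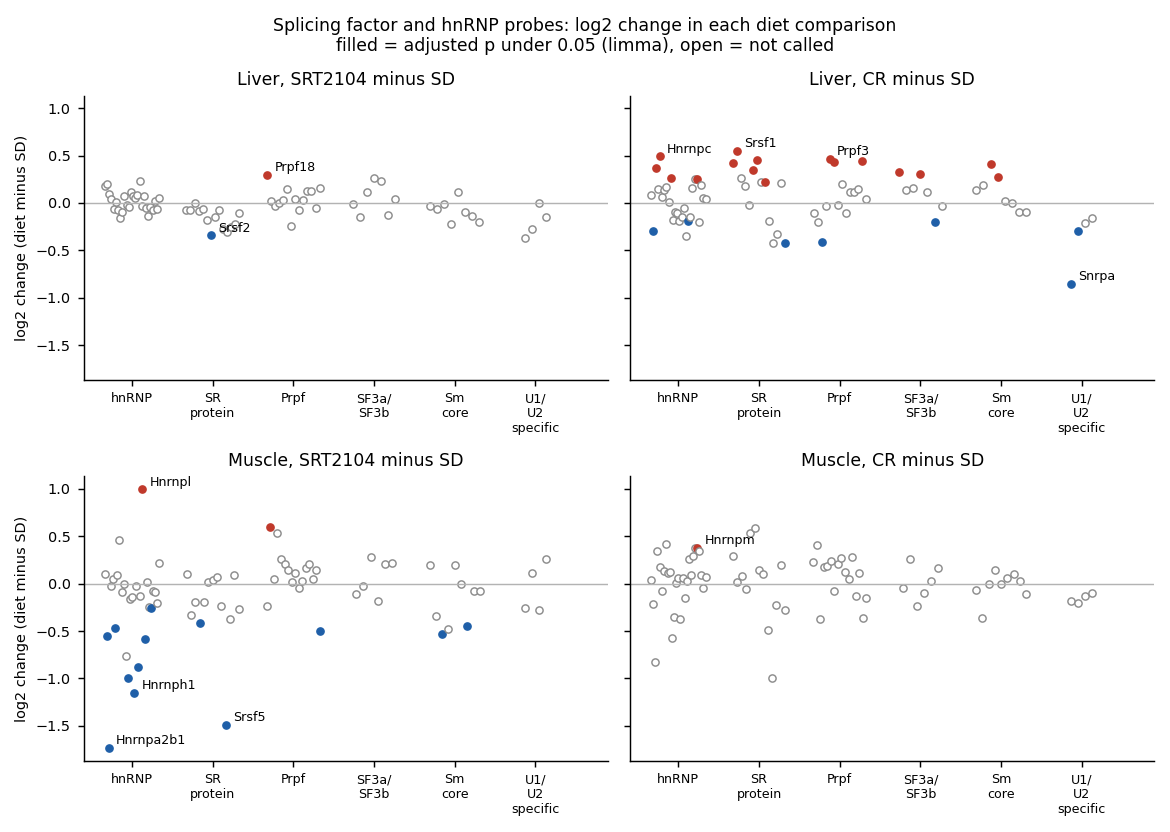
Log2 change of every tested member probe, by protein family, with SRT2104 minus SD at left and CR minus SD at right, for liver (top) and muscle (bottom, 15 arrays). Filled points were called (adjusted p under 0.05, red higher, blue lower) and open points were not, and the 13 blue points in the muscle SRT2104 panel include 8 of hnRNP genes.

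Hnrnpa2b1 encodes the abundant RNA-binding proteins hnRNP A2 and B1, which act in splicing and in RNA transport. Its probe ILMN_2615855 read 8.20, 8.55, 9.07, 8.29 and 8.02 in SRT2104 muscle, against 10.17, 10.32, 10.19, 10.07 and 10.02 in SD muscle. Every SRT2104 array was below every SD array. The group means were 8.43 ± 0.41 on SRT2104 and 10.16 ± 0.12 on SD (SD of arrays, n = 5 each), a change of -1.73 ± 0.36 or 3.32-fold lower (adjusted p = 0.00667). It was -1.89 over 12 arrays (adjusted p = 2.28e-07). With background correction by neqc on the deposited signals it was -2.14 and no longer called (adjusted p = 0.0623). In CR muscle the probe read 9.91, 9.94, 7.59, 9.67 and 9.54, and the CR change of -0.83 ± 0.36 was not called (adjusted p = 0.434). On the deposited linear scale the signals spanned 249 to 529 in SRT2104 muscle, 126.6 to 1035 in CR muscle and 1023 to 2326 in SD muscle.

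Hnrnph1 encodes hnRNP H1, a protein that binds runs of G in transcripts. Probe ILMN_2688923 read 8.05, 8.10, 8.39, 8.11 and 7.95 in SRT2104 muscle, against 9.63, 9.08, 9.29, 9.11 and 9.25 in SD muscle, with no overlap. Its change was -1.15 ± 0.28 (adjusted p = 0.0159), and it was -1.13 over 12 arrays. A second Hnrnph1 probe, ILMN_1256671, changed by -0.99 ± 0.20 (adjusted p = 0.00669), and with neqc by -1.52, not called (adjusted p = 0.101). A further one, ILMN_1218767, had a change of -0.76 ± 0.38 that was not called over 15 arrays (adjusted p = 0.225) and was called over 12 (-0.66, adjusted p = 1.68e-05). On that probe CR replicate 3 stood at 7.12, while the other CR arrays read 9.53 to 9.76.

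Hnrnpk encodes hnRNP K, a protein that binds runs of C. Probe ILMN_1245987 read 7.45, 7.47, 7.92, 7.38 and 7.40 in SRT2104 muscle, against 8.31, 8.55, 8.56, 8.23 and 8.36 in SD muscle. The groups did not overlap and the highest SRT2104 value belonged to replicate 3. The change was -0.88 ± 0.18 (adjusted p = 0.00588), and -1.0 over 12 arrays. With neqc it was -1.67 (adjusted p = 0.0281). Also lower among the hnRNPs were Hnrnpc ILMN_1235470 (-0.47, adjusted p = 0.00825), which forms the tetramer that packages nascent RNA, Hnrnpll ILMN_2684732 (-0.59, adjusted p = 0.0223), Hnrnpa1 ILMN_3096701 (-0.55, adjusted p = 0.0311) and Hnrnpm ILMN_2921095 (-0.26, adjusted p = 0.0457). In all of these the 5 SRT2104 arrays lay below the 5 SD arrays. The other tested Hnrnpa1 probe, ILMN_3024068, was detected on all 5 arrays of both groups. It changed by +0.10, which was not called (adjusted p = 0.600). The difference between the Hnrnpa1 probes was not called over 15 arrays (-0.65, adjusted p = 0.0736) and was called over 12 (-0.54, adjusted p = 0.00749).

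**Figure D2:**
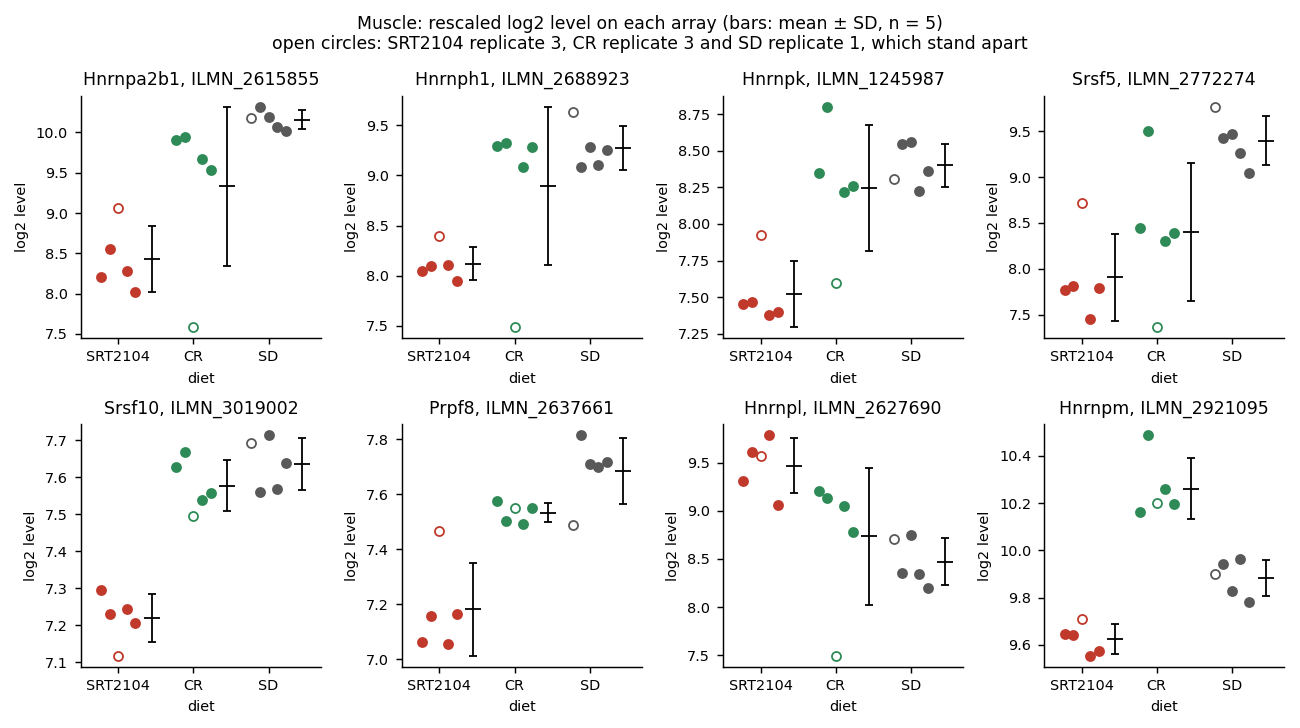
Rescaled log2 level of 8 member probes on each muscle array, with SRT2104 at left, CR in the middle and SD at right; bars are the mean ± SD of 5 arrays and open circles mark SRT2104 replicate 3, CR replicate 3 and SD replicate 1. In the Hnrnpa2b1, Hnrnph1, Hnrnpk, Srsf5, Srsf10 and Prpf8 panels every SRT2104 point lies below every SD point, while in the Hnrnpl panel every SRT2104 point lies above.

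Srsf5 encodes an SR protein that binds exonic enhancers. Probe ILMN_2772274 read 7.76, 7.81, 8.72, 7.46 and 7.79 in SRT2104 muscle, 8.45, 9.50, 7.37, 8.31 and 8.39 in CR muscle, and 9.77, 9.43, 9.47, 9.27 and 9.05 in SD muscle. SRT2104 and SD arrays did not overlap, whereas CR arrays reached into both ranges. The SRT2104 change was -1.49 ± 0.31, 2.81-fold lower (adjusted p = 0.00719), and -1.60 over 12 arrays. Srsf10, an SR protein that acts mainly as a splicing repressor when dephosphorylated, read 7.30, 7.23, 7.12, 7.24 and 7.21 on probe ILMN_3019002 in SRT2104 muscle, against 7.69, 7.56, 7.71, 7.57 and 7.64 in SD muscle (change -0.42 ± 0.07, adjusted p = 0.00181). It was detected on 1 of 5 SRT2104 arrays and on 5 of 5 SD arrays, so its level on SRT2104 is close to the background, and with neqc the change was -1.30 (adjusted p = 0.0116). The other tested Srsf10 probe, ILMN_2698282, was detected on all 5 SRT2104 arrays. It changed by -0.20, which was not called (adjusted p = 0.265). The difference between the Srsf10 probes was not called over 15 or over 12 arrays (adjusted p = 0.161 and 0.227). Prpf8 ILMN_2637661 was likewise close to the background on SRT2104, detected on 1 of 5 SRT2104 and 5 of 5 SD arrays. Its change was -0.50 ± 0.09 (adjusted p = 0.00298), and -1.61 with neqc (adjusted p = 0.00457). The other tested Prpf8 probe, ILMN_2612369, had stronger signals in SRT2104 muscle (471.1 to 765.9, beside 117.1 to 173.9 for ILMN_2637661). It changed by +0.15, which was not called (adjusted p = 0.765). The difference between these probes was not called over 15 arrays (0.65, adjusted p = 0.161) and was called over 12 (0.84, adjusted p = 2.89e-05).

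The Sm core genes Snrpd1 (ILMN_1225361, -0.53, adjusted p = 0.0116) and Snrpg (ILMN_2975640, -0.45, adjusted p = 0.0317) were lower as well. Probe ILMN_2610105 of Snrpd1 had a change of -0.48 that was not called over 15 arrays (adjusted p = 0.0552) and was called over 12 (-0.50, adjusted p = 0.00215). Both probes had all SRT2104 arrays below all SD arrays.

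Higher in SRT2104 muscle were Hnrnpl, whose protein binds CA repeats, and a single probe of Prpf19, a ubiquitin ligase that activates the spliceosome. Hnrnpl ILMN_2627690 read 9.31, 9.61, 9.57, 9.78 and 9.06 in SRT2104 muscle, against 8.71, 8.35, 8.75, 8.35 and 8.20 in SD muscle, and CR arrays read 9.20, 9.13, 7.50, 9.05 and 8.78. On the deposited linear scale SRT2104 and SD muscle overlapped (522.8 to 846.7 and 302.3 to 725.1). After rescaling the SRT2104 and SD arrays did not overlap, and the change was +1.0 ± 0.27 (adjusted p = 0.0284). Leaving out SRT2104 replicate 2 or 4, or SD replicate 2, 4 or 5, ended this call (adjusted p of 0.0647, 0.0774, 0.0658, 0.0619 and 0.0641, in that order), and it was also lost with neqc (+1.33, adjusted p = 0.206). Prpf19 ILMN_2934532 read 12.57, 12.67, 11.87, 12.42 and 12.54 in SRT2104 muscle, against 11.78, 11.62, 11.78, 11.81 and 12.07 in SD muscle, with overlap through SRT2104 replicate 3. Its change of +0.60 ± 0.17 (adjusted p = 0.0387) was lost when any of SRT2104 replicates 1, 2, 4 and 5 or SD replicates 1 to 4 was left out, with an adjusted p of at most 0.0959. With neqc it was +0.54 and not called (adjusted p = 0.101). The other tested Prpf19 probes were not called. ILMN_2934534 changed by +0.54 (adjusted p = 0.0685) and ILMN_2934533 by +0.05 (adjusted p = 0.956). The Hnrnpll call was lost without SRT2104 replicate 1, 2, 4 or 5, with an adjusted p of at most 0.0610.

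Markers of other cell types differed between the same muscle groups. Averaged over its tested marker probes, each SRT2104 array lay below the SD mean for adipocyte markers (-1.60 to -1.05 log2 units, 3 probes, 0 called), fibroblast markers (-0.99 to -0.89, 6 probes, 2 called lower) and macrophage markers (-0.67 to -0.32, 6 probes, 3 called lower). SD arrays spanned -0.20 to 0.18, -0.18 to 0.17 and -0.14 to 0.19 for these lists. Over 12 arrays 1 adipocyte, 5 fibroblast and 3 macrophage probes were called lower. Hepatocyte markers went the other way, with SRT2104 arrays at -0.09 to 7.34 and SD arrays at -0.30 to 0.13 (8 probes, 0 called over 15 arrays and 4 higher over 12), and 1 of 2 erythroid probes was called higher over both sets of arrays. Of 6 endothelial probes 0 were called over 15 arrays and 1 was higher over 12, and of 12 skeletal muscle probes 0 were called over 15 arrays and 1 was lower over 12. Their part in the changes of the splicing genes was not tested. Of all member probes 62.0% to 65.7% were detected on SRT2104 muscle arrays, 42.6% to 71.3% on CR muscle arrays and 66.7% to 74.1% on SD muscle arrays.

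To show the start regions of the muscle genes with the largest falls, the 250 bases before the annotated transcription start are printed for Hnrnpa2b1 (chr6:51469895-51470144, minus strand), Hnrnph1 (chr11:50376740-50376989, plus strand), Hnrnpk (chr13:58402118-58402367, minus strand) and Srsf5 (chr12:80945249-80945498, plus strand), 5' to 3' from RefSeq on GRCm38.p6. Of 2 annotated starts for Hnrnpa2b1 and 5 for Hnrnph1, the most upstream was used. Capitals mark CCAAT boxes (CCAAT), GC boxes (GGGCGG) and ETS motifs (CCGGAAG) on either strand. The CCAAT box of Hnrnpa2b1 is on the reverse strand, and the last GC box and the last ETS motif of Srsf5 overlap.
Hnrnpa2b1: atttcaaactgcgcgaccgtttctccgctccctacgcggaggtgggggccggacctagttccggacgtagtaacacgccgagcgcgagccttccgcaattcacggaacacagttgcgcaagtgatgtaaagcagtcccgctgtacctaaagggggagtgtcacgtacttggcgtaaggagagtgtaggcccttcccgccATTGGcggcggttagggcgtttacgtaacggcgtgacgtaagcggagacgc
Hnrnph1: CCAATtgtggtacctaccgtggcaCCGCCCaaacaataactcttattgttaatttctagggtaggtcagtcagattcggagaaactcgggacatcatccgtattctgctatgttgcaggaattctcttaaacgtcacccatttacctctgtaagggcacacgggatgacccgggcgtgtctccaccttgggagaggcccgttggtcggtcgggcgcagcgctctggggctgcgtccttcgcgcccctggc
Hnrnpk: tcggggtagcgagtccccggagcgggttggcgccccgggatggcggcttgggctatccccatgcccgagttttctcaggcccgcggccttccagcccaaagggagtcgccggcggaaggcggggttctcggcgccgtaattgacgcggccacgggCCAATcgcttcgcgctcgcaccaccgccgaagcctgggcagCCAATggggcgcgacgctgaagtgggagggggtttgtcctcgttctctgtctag
Srsf5: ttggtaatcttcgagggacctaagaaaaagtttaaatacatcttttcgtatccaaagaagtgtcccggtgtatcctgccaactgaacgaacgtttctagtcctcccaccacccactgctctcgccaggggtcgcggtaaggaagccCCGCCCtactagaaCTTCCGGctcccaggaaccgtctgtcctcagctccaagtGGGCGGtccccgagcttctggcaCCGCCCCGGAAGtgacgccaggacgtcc
All 3 hnRNP windows hold a CCAAT box, 1 each in Hnrnpa2b1 and Hnrnph1 and 2 in Hnrnpk. The Srsf5 window holds none and has 3 GC boxes and 2 ETS motifs. Each of the 4 windows reaches into the annotated span of its gene, which begins upstream of the start used here. Those of Hnrnph1 and Hnrnpk lie wholly inside that span.

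Calorie restriction gave a single called member in muscle. Hnrnpm ILMN_2921095, a probe of an hnRNP that promotes exon skipping, read 10.16, 10.49, 10.20, 10.26 and 10.20 in CR muscle, against 9.90, 9.94, 9.83, 9.96 and 9.78 in SD muscle, with no overlap. On the deposited linear scale the groups overlapped, with 687.2 to 1408.5 in CR muscle and 871.1 to 1872.1 in SD muscle. The rise is thus relative to the other probes of each array. The change was +0.38 ± 0.08 (adjusted p = 0.0482), where 0.454% of all probes were called (0.0556% higher and 0.398% lower). Over 12 arrays it was +0.40 and again the single called member, with 0.445% of all probes higher and 1.58% lower. The call was lost in 14 of the 15 fits that left out a single array, all but the one without CR replicate 3, with an adjusted p of at most 0.138. It was lost with neqc as well (adjusted p = 0.206). SRT2104 muscle read 9.64, 9.64, 9.71, 9.56 and 9.57 on this probe, below both other diets.

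Set directly against CR, SRT2104 muscle had 2 member probes higher and 11 lower of 75, beside 10.7% of all probes called (5.01% higher and 5.66% lower). Over 12 arrays there were 8 higher and 24 lower, beside 19.2% and 14.9% of all probes. Leaving out CR replicate 3 alone gave 24 called members, while 7 or 8 were left without SRT2104 replicate 1, 4 or 5. The hnRNP probes had 0 higher and 5 lower, the Sm core probes 0 and 3, the SR protein probes 0 and 2, and both higher probes belonged to U1 proteins. Hnrnpm was lower on ILMN_2921095 (-0.64 ± 0.08, adjusted p = 0.00066) and on ILMN_1239021 (-0.62 ± 0.10, adjusted p = 0.00298), followed by Srsf10 (-0.36, adjusted p = 0.00575), Hnrnpll (-0.68, adjusted p = 0.0128) and Snrpg (-0.55, adjusted p = 0.0129). Snrpc (+0.36, adjusted p = 0.0257) and Snrpa ILMN_2667509 (+0.32, adjusted p = 0.0317) were higher. With neqc Snrpc was at +0.94 (adjusted p = 0.0271) and Hnrnpll at -1.06, while the calls of Srsf10 and Snrpa were lost (adjusted p = 0.0771 and 0.172). The Snrpc call was lost without SRT2104 replicate 1, 4 or 5 or CR replicate 2 or 4 (adjusted p at most 0.0738), and the Snrpa call without SRT2104 replicate 1, 4 or 5 or CR replicate 1, 2 or 5 (adjusted p at most 0.0859). Hnrnpa2b1 ILMN_2615855 was not called against CR over 15 arrays (-0.90, adjusted p = 0.118) and was called over 12 (-1.50, adjusted p = 1.41e-06).

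In liver the larger change came with calorie restriction, with called members in both directions. Higher were 5 SR protein probes and several core spliceosome genes, and lower were Snrpa and 1 SR protein probe, of Srsf9. Of 73 member probes 16 were higher and 7 lower in CR liver than in SD liver, or 31.5% called where 26.7% of all probes were (13.8% higher and 12.9% lower). The median member change was +0.06, and that of all probes was +0.00. The SR protein probes had 5 higher and 1 lower of 14, the hnRNP probes 4 and 2 of 26, the Prpf probes 3 and 1 of 14, SF3a and SF3b probes 2 and 1 of 7, Sm core probes 2 and 0 of 8, and U1 and U2 proteins 0 and 2 of 4. With median scaling the SR protein probes had 7 higher and 3 lower. The Srsf5 probes ILMN_2772274 and ILMN_3148662 changed by -0.42 and -0.33, not called (adjusted p = 0.0605 and 0.0747). Leaving out 1 array at a time gave 18 to 25 called members. Among markers of other cell types in CR liver, 3 of 9 macrophage probes and 1 of 2 erythroid probes were called lower and 2 of 4 fibroblast probes higher, with 0 called of 2 adipocyte and 4 endothelial probes. The 1 tested skeletal muscle probe was not called (+0.34). It lay 2.08 log2 units above the SD mean on CR replicate 1 and at -0.23 to 0.00 on the other CR arrays. Macrophage markers lay at -0.34 to 0.12 on CR arrays and -0.24 to 0.41 on SD arrays relative to the SD mean, and fibroblast markers at 0.18 to 0.41 and -0.15 to 0.11. Their part in the result was not tested.

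Srsf1, the SR protein for which the family's splicing activity was first worked out, read 11.31, 11.21, 11.38, 10.98 and 11.33 on ILMN_3142235 in CR liver, against 10.82, 10.50, 10.73, 10.57 and 10.82 in SD liver. There was no overlap, and the change was +0.55 ± 0.10 (1.47-fold, adjusted p = 0.000705). Its other tested probe, ILMN_2591814, rose by 0.42 (adjusted p = 0.00174). Srsf2, an SR protein that stays in the nucleus, read 11.52, 11.61, 11.86, 11.79 and 11.87 on ILMN_2806029 in CR liver, 11.16, 10.90, 10.78, 10.86 and 10.97 in SRT2104 liver, and 11.34, 11.27, 11.21, 11.28 and 11.27 in SD liver. The 3 diets did not overlap on this probe, with CR highest and SRT2104 lowest, and the CR change was +0.46 ± 0.08 (adjusted p = 0.000815). On the deposited linear scale CR and SD liver overlapped (2588.1 to 3467.1 and 2672.1 to 3490.7). Srsf3 ILMN_2733399, of another SR protein gene, was also higher (+0.22, adjusted p = 0.0212).

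Hnrnpc ILMN_1235470 read 13.17, 13.10, 13.21, 13.10 and 13.11 in CR liver, against 12.43, 12.78, 12.65, 12.81 and 12.55 in SD liver. Every CR array was above every SD array, and the change was +0.49 ± 0.08 (adjusted p = 0.000278). On the unscaled linear signals the same probe spanned 7676 to 8966 in CR liver and 7683 to 8469 in SD liver, so the rise is relative to the other probes of each array. The median signal over tested probes was 407 to 471 on the CR liver arrays and 470 to 603 on the SD liver arrays.

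Among core spliceosome genes, Prpf8, the scaffold at the catalytic centre, read 10.93, 10.80, 10.85, 10.84 and 10.74 on ILMN_2612369 in CR liver, against 10.57, 10.32, 10.29, 10.29 and 10.48 in SD liver (change +0.44 ± 0.07, adjusted p = 0.000386). The Sm core gene Snrpd1 read 9.48, 9.57, 9.47, 9.60 and 9.48 on ILMN_1225361 in CR liver, against 9.08, 9.07, 9.30, 9.04 and 9.05 in SD liver (change +0.41 ± 0.07, adjusted p = 0.000366). Neither gene's groups overlapped. Prpf3, a protein of the U4/U6 particle, was higher on both tested probes by 0.43 and 0.47 (adjusted p = 0.000707 and 0.0033), Sf3a1 by 0.32 (adjusted p = 0.00648) and Sf3b3 by 0.30 (adjusted p = 0.0323).

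Lower in CR liver was Snrpa, the U1 protein that binds a loop of the U1 RNA. Probe ILMN_1247582 read 9.11, 9.41, 9.36, 9.59 and 9.19 in CR liver, 9.93, 9.92, 9.95, 10.03 and 9.29 in SRT2104 liver, and 9.77, 10.13, 10.65, 10.39 and 10.01 in SD liver. CR and SD arrays did not overlap, and the CR change was -0.85 ± 0.16 (1.81-fold lower, adjusted p = 0.000905). Its second probe, ILMN_2667509, fell by 0.30 (adjusted p = 0.018), a call that was lost with neqc (-0.29, adjusted p = 0.0673). Srsf9 ILMN_1222447 read 10.86, 10.95, 10.61, 10.75 and 10.94 in CR liver, against 11.17, 11.17, 11.40, 11.33 and 11.17 in SD liver, a change of -0.42 ± 0.11 (adjusted p = 0.00787). Prpf19 ILMN_2934533 (-0.42, adjusted p = 0.0171), Sf3b5 (-0.20, adjusted p = 0.043) and Hnrnpk ILMN_2784821 (-0.19, adjusted p = 0.0231) were also lower. The Hnrnpk call was lost without CR replicate 3 or 5 (adjusted p = 0.0502 and 0.0676) and with median scaling (-0.14, adjusted p = 0.124), and with neqc the change was -0.39 (adjusted p = 0.00723).

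**Figure D3:**
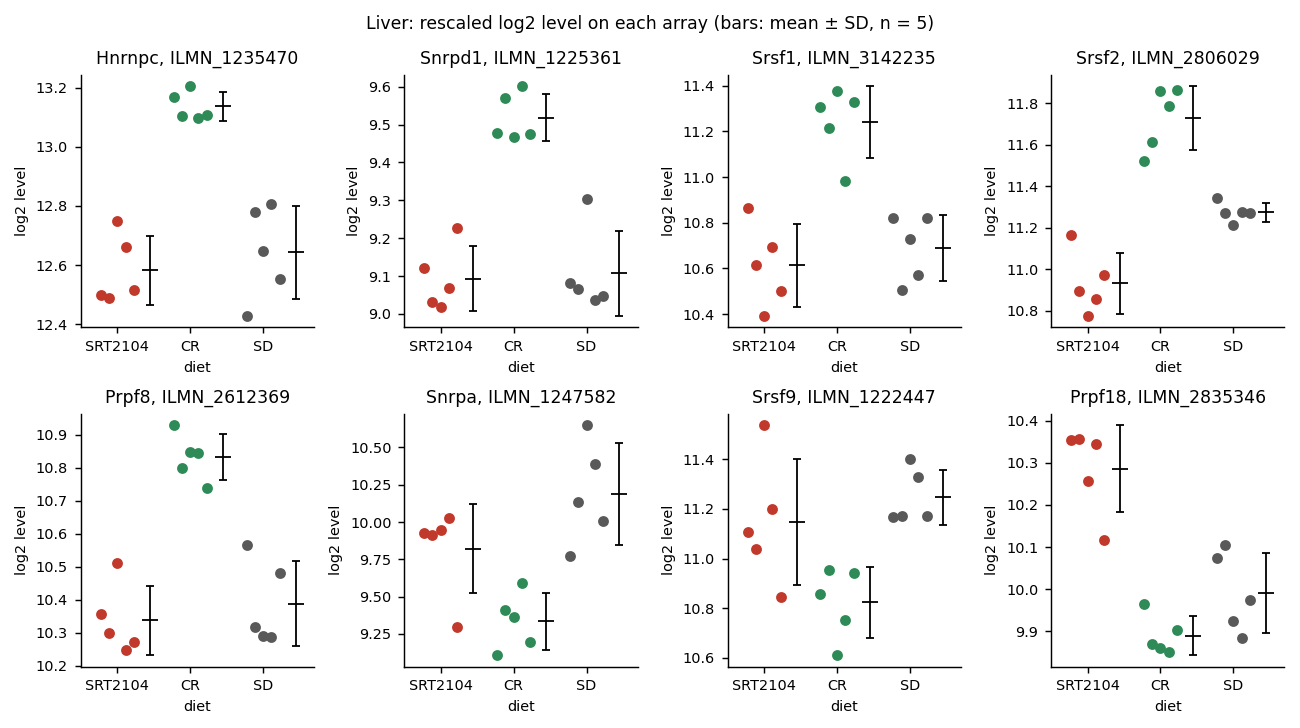
Rescaled log2 level of 8 member probes on each liver array, with SRT2104 at left, CR in the middle and SD at right; bars are the mean ± SD of 5 arrays. CR points lie above all SD points for Hnrnpc, Snrpd1, Srsf1, Srsf2 and Prpf8 and below them for Snrpa and Srsf9, and SRT2104 points lie above all SD points for Prpf18.

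The start regions of a liver gene that was higher and of one that was lower are shown for Srsf2 (chr11:116853095-116853344, minus strand) and Snrpa (chr7:27196272-27196521, minus strand), as 250 bases before the RefSeq start on GRCm38.p6, 5' to 3'. Of 2 annotated starts for Snrpa, the most upstream was used. Capitals mark the CCAAT box, the GC box (GGGCGG) and the E-box (CACGTG), which reads the same on both strands.
Srsf2: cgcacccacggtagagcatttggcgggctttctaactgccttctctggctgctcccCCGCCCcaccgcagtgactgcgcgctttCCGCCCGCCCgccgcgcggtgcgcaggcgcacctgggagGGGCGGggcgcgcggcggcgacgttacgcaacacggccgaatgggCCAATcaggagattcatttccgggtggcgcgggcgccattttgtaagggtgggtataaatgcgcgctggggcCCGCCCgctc
Snrpa: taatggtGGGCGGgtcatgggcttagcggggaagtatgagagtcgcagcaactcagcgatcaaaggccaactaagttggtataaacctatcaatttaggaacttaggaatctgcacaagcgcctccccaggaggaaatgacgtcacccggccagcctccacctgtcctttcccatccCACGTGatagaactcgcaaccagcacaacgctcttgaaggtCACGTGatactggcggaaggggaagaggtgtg
The Srsf2 window has 5 GC boxes and 1 CCAAT box, with 2 of the GC boxes overlapping, and the Snrpa window has 1 GC box and 2 E-boxes. The Srsf2 window lies wholly inside the annotated span of its gene, which begins upstream of the start used here. Across all 52 member genes with a window, 50% held CCAAT, 69.2% GGGCGG, 30.8% CCGGAAG and 13.5% CACGTG in any of their windows. For all 27025 genes with a window these shares were 37.5%, 35.4%, 7.83% and 6.86%. Among genes with a probe tested in either tissue the shares were 56.1%, 65.9%, 29.3% and 12.2% of 41 member genes, and 41%, 62.1%, 15.1% and 10.2% of 7251 genes in all. These are matches of letters and not measured binding sites.

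SRT2104 in liver gave 1 member higher and 1 lower of 73, where 3.16% of all probes were called (1.51% higher and 1.65% lower), and at an unadjusted p under 0.05 there were 3 higher and 6 lower. Prpf18, a factor of the second step of splicing, read 10.35, 10.36, 10.26, 10.34 and 10.12 in SRT2104 liver, against 10.07, 10.10, 9.92, 9.88 and 9.97 in SD liver. On the deposited linear scale SRT2104 and SD liver overlapped (840.9 to 1362.7 and 1002 to 1385.5). After rescaling the groups did not overlap, and the change was +0.29 ± 0.07 (adjusted p = 0.0228). It was lost without SRT2104 replicate 1, 2 or 4 (adjusted p = 0.0516, 0.0584 and 0.0544). Srsf2 ILMN_2806029 changed by -0.34 ± 0.08 (adjusted p = 0.0336) and was lost in 8 of the 15 fits without a single array, namely without SRT2104 replicates 2 to 5 or SD replicates 1, 2, 4 and 5 (adjusted p at most 0.0896). No member was called when only the SRT2104 and SD arrays were fitted, and with neqc the Srsf2 call was lost (adjusted p = 0.0937). Hepatocyte marker probes were called higher in SRT2104 liver in 8 of 11 cases, and in CR liver in 4 of 11. Their part in the result was not tested.

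Against CR directly, SRT2104 liver had 8 member probes higher and 20 lower of 73, beside 27.1% of all probes called (13% higher and 14.1% lower). The SR protein probes had 1 higher and 8 lower of 14. Both probes of Srsf1 (-0.63 and -0.50), Srsf3 (-0.36 and -0.30) and Snrpd1 (-0.50 and -0.43) were lower, as was Srsf2 ILMN_2806029 (-0.80 ± 0.08, adjusted p = 6.63e-06). Higher were Prpf18 (+0.40, adjusted p = 0.000408), Hnrnpa2b1 ILMN_2615855 (+0.50, adjusted p = 0.00124) and Hnrnpk ILMN_1245987 (+0.58, adjusted p = 0.00398). This comparison shares its SRT2104 and CR arrays with those against SD.

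Probes of a single gene often gave different changes, and this was tested on the difference between each pair of probes of a gene within an array. Over the 41 pairs of member probes tested in muscle, 9 pairs of 7 genes differed in their SRT2104 change, 22% beside 13.4% over the pairs of all genes. Over 12 arrays it was 23 pairs of 15 genes, beside 37.6%. Leaving out CR replicate 3 alone gave 22 pairs, and any single SD array or any of SRT2104 replicates 1, 2, 4 and 5 left 2 to 5. For CR in liver 11 of 35 pairs in 8 genes differed, 31.4% beside 8.88%, and without CR replicate 3, 4 or 5 it was 6 or 7 pairs. For SRT2104 in liver 0 of 35 pairs differed, beside 0.558%, and for CR in muscle 1 of 41, beside 0.0643% (1 over 12 arrays, beside 1.57%).

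Hnrnpa2b1 was the widest such case in muscle. ILMN_2771074, annotated to NM_016806, read 8.06, 7.69, 7.93, 7.94 and 8.02 in SRT2104 muscle, against 8.47, 7.99, 7.78, 7.86 and 7.68 in SD muscle. These groups overlapped (change -0.03), whereas ILMN_2615855, annotated to NM_182650, changed by -1.73. The changes differed by -1.70 ± 0.54 (adjusted p = 0.0489), and by -1.99 over 12 arrays (adjusted p = 9.84e-07). In CR liver the same pair moved in opposite directions, with ILMN_2615855 lower (-0.30, adjusted p = 0.0299) and ILMN_2771074 higher (+0.37, adjusted p = 0.029), a difference of -0.67 (adjusted p = 0.0189). It was the only pair of member probes in liver with both probes called in opposite directions, and ILMN_2771074 was detected on 5 of 5 CR and 3 of 5 SD liver arrays.

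For Srsf5, ILMN_3148662 (NM_001079695) read 8.27, 8.53, 9.05, 7.88 and 8.46 in SRT2104 muscle, 8.72, 9.77, 7.57, 8.52 and 8.36 in CR muscle, and 8.86, 8.80, 8.89, 8.82 and 8.69 in SD muscle. Its SRT2104 change of -0.38 was not called, and it differed from that of ILMN_2772274 (NM_009159, -1.49) by 1.11 ± 0.11 (adjusted p = 6.82e-05). The CR changes of the pair, -0.22 and -0.99, differed by 0.77 ± 0.11 (adjusted p = 0.0184), although neither was called on its own. This pair was no longer called without CR replicate 1 or 4 or SD replicate 2 or 3. Within an array the difference between these probes varied less than either probe alone.

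Other genes behaved in the same way in SRT2104 muscle. The 2 Hnrnpk probes differed by -0.75 (adjusted p = 0.0216), with ILMN_2784821 at -0.13. In Hnrnph1 the probes ILMN_1256671 and ILMN_2688923 differed from ILMN_2684987 (-0.14) by -0.85 and -1.01 (adjusted p = 0.0219 and 0.0408), and ILMN_1256671 was set against ILMN_2684986 (-0.16, adjusted p of the difference 0.0489). That last probe was detected on 1 of 5 SRT2104 and 4 of 5 SD arrays, so the size of this difference is limited by the background. Signals of ILMN_2684987 were also low on the SRT2104 arrays (138.4 to 155.4). With neqc its change was -0.52 (adjusted p = 0.102) and that of ILMN_1256671 was -1.52 (adjusted p = 0.101). Hnrnpll (-0.60, adjusted p = 0.0284), Hnrnpc (-0.57, adjusted p = 0.0384) and Hnrnpul1 (0.42, adjusted p = 0.00447) completed the genes. Of the Hnrnpul1 pair, ILMN_2675170 was detected on 0 of 5 SRT2104 arrays, so its level there is only bounded by the background. In CR liver the pairs of Hnrnpm (0.46, adjusted p = 0.00135), Hnrnph1 (0.45, adjusted p = 0.00365), Snrpa (0.56, adjusted p = 0.016) and Prpf8 (0.41, adjusted p = 0.0165) differed, and those of Prpf19 and Hnrnpc had an adjusted p of 0.0277 and 0.0287. The Srsf2 pair was also called (adjusted p = 0.045), but its second probe, ILMN_1235653, was detected on only 2 of 5 CR and 2 of 5 SD arrays and cannot show how that signal changed. All the probes of Hnrnph1, Hnrnpk, Hnrnpc, Hnrnpm, Prpf8, Prpf19 and Snrpa in these pairs carry the same RefSeq accession within each gene.

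**Figure D4:**
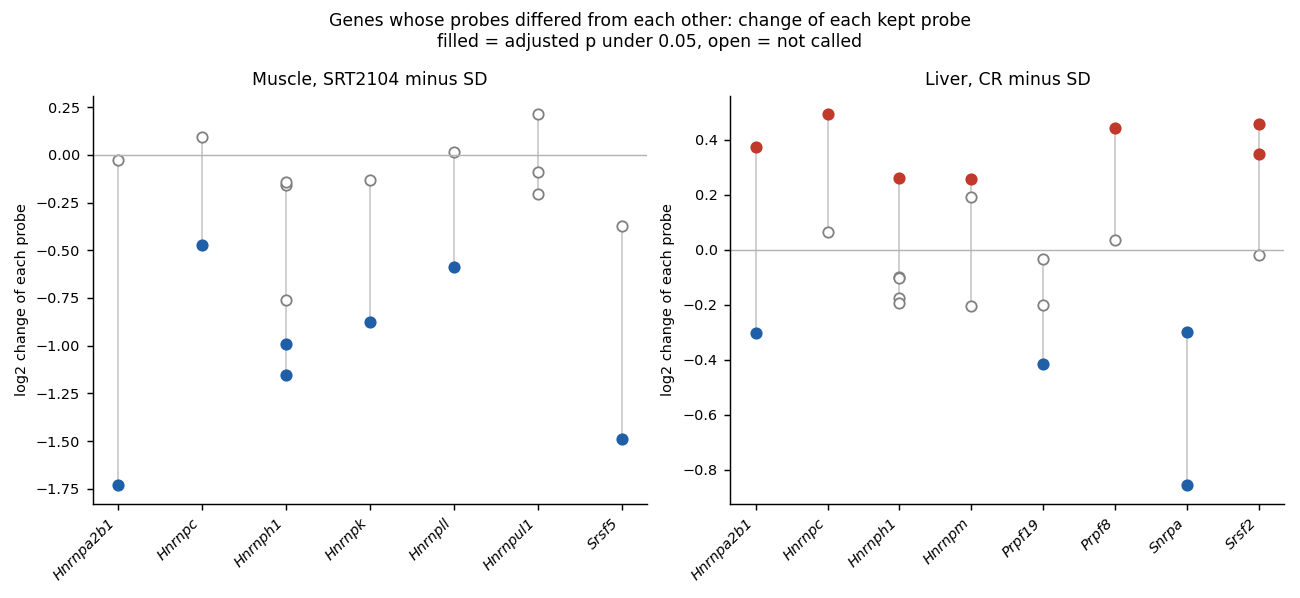
Log2 change of every tested probe of the genes in which probes differed, for SRT2104 minus SD in muscle (left, 15 arrays) and CR minus SD in liver (right). Lines join the probes of a gene, filled points were called (red higher, blue lower) and open points were not; in muscle the Hnrnpa2b1 probes lie at -0.03 and -1.73, and in liver at +0.37 and -0.30.

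The SRT2104 change was then compared between tissues, as the muscle change minus the liver change of the 69 probes tested in both. For 3 probes it was higher in muscle and for 11 lower, 20.3% of the members beside 10.4% of all probes (4.16% higher and 6.26% lower), and over 12 muscle arrays it was 8 and 14 beside 13.7% and 12.3%. There were 9 in place of 14 without muscle SRT2104 replicate 1 or 4, muscle SD replicate 2 or liver SRT2104 replicate 3. Hnrnpa2b1 ILMN_2615855 had the most negative difference (-1.94 ± 0.37, adjusted p = 0.00131), with a liver change of +0.20 that was not called (adjusted p = 0.273). Hnrnph1 ILMN_2688923 (-1.24, adjusted p = 0.0072), Srsf5 ILMN_2772274 (-1.19, adjusted p = 0.0308), Hnrnpk ILMN_1245987 (-1.12, adjusted p = 0.00185) and Prpf8 ILMN_2637661 (-0.67, adjusted p = 0.000938) followed this direction. Hnrnpl (+0.92, adjusted p = 0.0423), Snrpc (+0.40, adjusted p = 0.0281) and Snrpa ILMN_2667509 (+0.39, adjusted p = 0.0444) went the other way. Leaving out 1 array at a time ended these last 3 calls in 13, 6 and 17 of 30 fits, with an adjusted p of at most 0.0859, 0.0645 and 0.0951. All 3 were lost with neqc (adjusted p = 0.326, 0.102 and 0.133), where the differences of Hnrnpk and Prpf8 were -2.05 and -2.23. The other tested Prpf8 probe, ILMN_2612369, had SRT2104 changes of +0.15 in muscle and -0.05 in liver, neither of them called. Those of Snrpa ILMN_2667509 were +0.12 in muscle and -0.28 in liver, also not called (adjusted p = 0.431 and 0.0854). For CR 1 member was higher and 1 lower, beside 4.70% of all probes (2.61% higher and 2.09% lower), and over 12 muscle arrays 4 and 3 beside 5.61% and 5.31%. Leaving out muscle SRT2104 replicate 3 gave 5 called members, muscle CR replicate 3 gave 6 and muscle CR replicate 5 gave 4. The 2 called over all arrays were Hnrnpm ILMN_2921095 (+0.57, adjusted p = 0.00325), with changes of +0.38 in muscle and -0.20 in liver, and Hnrnpc ILMN_1235470 (-0.59, adjusted p = 0.0078), with changes of -0.08 in muscle and +0.49 in liver. With neqc the Hnrnpc difference was not called (-0.58, adjusted p = 0.0577).

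On the standard diet, after common rescaling, member probes differed between the tissues less often than all probes did. Of 69 member probes 18 were higher and 23 lower in muscle than in liver, beside 76.0% of all probes called (43.8% higher and 32.3% lower). With the scores used as deposited, without the common rescaling, 11 were higher and 39 lower. The median over all probes then moved to -0.17 in place of +0.15, so the balance of directions depends on the scaling. The SR protein probes had 0 higher and 6 lower of 13, the Prpf probes 9 and 2 of 14, and the hnRNP probes 5 and 10 of 24. Snrpn, the imprinted Sm protein best known from brain, averaged 11.75 ± 0.09 in muscle and 9.84 ± 0.24 in liver on the joint scale (SD, n = 5 each), 3.74-fold higher in muscle (adjusted p = 5.57e-13). Hnrnpdl ILMN_2903440 (+1.32 ± 0.13) and Prpf3 ILMN_2941431 (+1.01 ± 0.12) were also higher in muscle. Hnrnpf (-1.30 ± 0.08), Hnrnpm ILMN_2921095 (-0.99 ± 0.08) and Snrpa ILMN_1247582 (-1.72 ± 0.15) were lower. Hnrnpl at -2.16 ± 0.21 and Srsf5 at -1.83 ± 0.25 (ILMN_2772274) and -1.35 ± 0.24 (ILMN_3148662) were lower too, and these were picked out after their values were seen. Called probes of Hnrnpa2b1, Hnrnpdl, Hnrnpk and Prpf8 differed in sign between probes of the gene, for example Hnrnpa2b1 at +1.13 (ILMN_2771074) and -0.61 (ILMN_2615855).

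**Figure D5:**
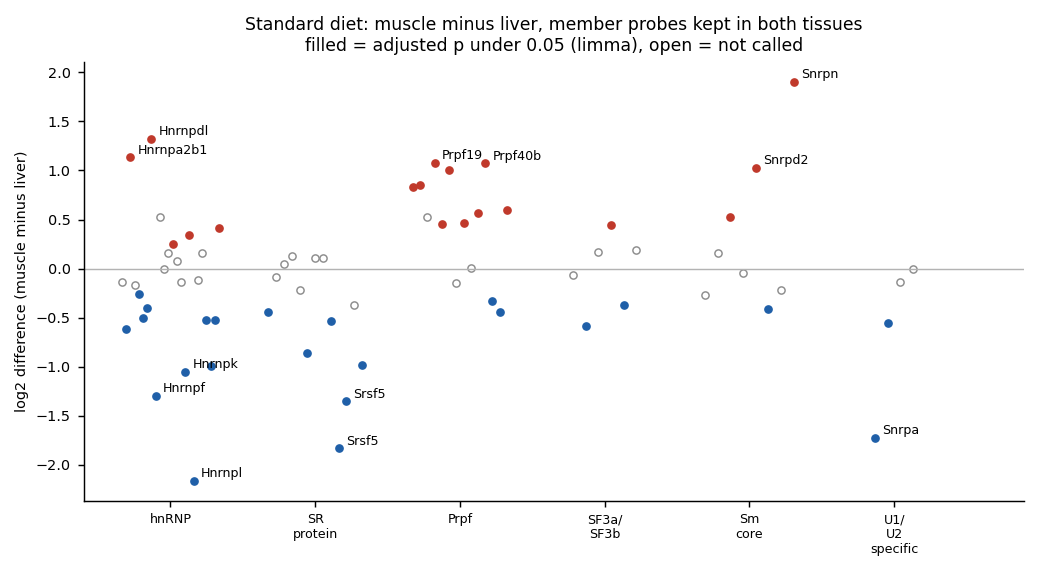
Log2 difference between muscle and liver on the standard diet for the 69 member probes tested in both tissues, by protein family, after common rescaling. Filled points were called (red higher in muscle, blue lower) and open points were not; Snrpn is at +1.90 and Hnrnpl at -2.16.

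Other genes of RNA processing were read from lists of regulators, kinases and assembly factors. In SRT2104 muscle the tissue splicing regulators had 0 higher and 5 lower of 25 probes, beside 3.78% and 6.99% of all probes, and over 12 arrays 0 and 7, beside 17.5% and 14.3%. The 5 were Rbfox1 (-1.19 ± 0.17, adjusted p = 0.000813), which binds GCATG and sets muscle exons, Mbnl2 on 2 probes (-0.96 and -0.85, adjusted p = 0.00596 and 0.0456), a muscleblind protein, Rbm38 (-0.70, adjusted p = 0.00542) and Celf1 (-0.39, adjusted p = 0.0061). The SR protein kinases had 1 higher (Srpk1, +0.39, adjusted p = 0.0235) and 1 lower (Clk4, -0.59, adjusted p = 0.042) of 10, and over 12 arrays 5 and 1. The other spliceosome and exon junction proteins had 1 higher and 3 lower of 62 probes, 6.45% beside 10.8% of all probes, and over 12 arrays 14 and 9. The snRNP assembly factors had 0 and 1 of 19 (3 and 2 over 12 arrays). Matr3, a nuclear matrix RNA-binding protein, was lower (-0.76, adjusted p = 0.00115), as were the helicases Dhx15 (-0.75, adjusted p = 0.00545) and Ddx39b (-0.38, adjusted p = 0.00948).

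In CR liver the other spliceosome and exon junction proteins had 12 higher and 9 lower of 61 probes, 34.4% beside 26.7% of all probes, and the SR protein kinases 0 of 10. Rbm8a, a core protein of the exon junction complex, was higher (+0.51, adjusted p = 0.000618), as were Acin1 (+0.50, adjusted p = 0.000162) and Gemin2 (+0.45, adjusted p = 0.00204), which helps to load the Sm core and was 1 of 2 called probes of 20 in its list. The cold-inducible RNA-binding proteins went in opposite directions, with Rbm3 higher (+0.95 ± 0.15, adjusted p = 0.000343) and Cirbp lower (-0.60 ± 0.13, adjusted p = 0.00328). In SRT2104 liver Plrg1 (-0.29, adjusted p = 0.0413) and Usp39 (-0.26, adjusted p = 0.0453) were called of these lists.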

How the data were processed

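RNA from liver and muscle was hybridised to 30 Illumina MouseRef-8 v2 bead arrays, 5 mice for each tissue and diet. The authors extracted the intensity of each probe and its detection p-value with GenomeStudio 1.6.0 and deposited both. The authors also deposited a score for each probe (a z-score), made from the natural log of the signal with the mean and SD of its array. Each of the 30 score columns matched the signals of exactly 1 array. Precision is limited by the number of arrays, 5 in each group.

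Within each tissue, testing was limited to probes whose detection p was below 0.02 on 5 or more arrays (11065 in liver, 10792 in muscle, 8998 in both). Over these probes, every array's scores were set to the same mean and spread, returned to natural log units with the average array SD (1.19 in liver and 1.03 in muscle) and converted to log2. Group means of a tissue were fitted in limma 3.58.1 (R 4.3.3) with empirical Bayes moderation and Benjamini-Hochberg adjustment over all kept probes. Differences between tissues came from a fit of all 6 groups, in which liver and muscle arrays were taken as independent, and tissue cannot be told apart from its extraction kit. Probe pairs of a gene were fitted on their difference within each array, adjusted over all pairs of all genes. The fit within a tissue and the fit of the tissue difference were tested on simulated data, and the fit of probe pairs was not.

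Gene symbols came from the platform annotation (23978 probes with 1 symbol, 1719 with none), and all 108 member probes had a current RefSeq symbol. RefSeq start regions (GRCm38.p6) covered 52 of the 58 member genes. The position of a probe within its transcript was not used here. The members and lists were chosen with earlier results of these data known. Named with values are, for each diet comparison with SD and for SRT2104 against CR, the 5 called members each way with the smallest adjusted p. The rule adds the 5 gene pairs with the smallest adjusted p, 3 members each way between tissues, and 2 genes of each other list. Further called members were named after their values were seen, and for these no alternative setting was computed beyond the 12 muscle arrays. The replicate numbers were taken as names. Deviations of arrays with the same number correlated between -0.251 and 0.306 in the liver SRT2104 and SD groups. For liver and muscle arrays of the same diet and number they correlated between -0.124 and 0.363. The signal columns of each diet carry the same numbers in both tissues, but whether these mark the same mice is not stated. The paired fit is given with the other alternatives.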

Additional observations from a re-analysis of the deposited data

Results flagged for a closer look

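A named probe was looked at again when 1 of 5 arrays lay far from the other 4, with a gap of more than 0.71 of the group's range (Dixon's test). This held in 12 of 123 groups, where chance alone would give about 5%. The share of the range is given for each. In liver, SRT2104 replicate 5 was low for Snrpa ILMN_1247582 (0.847, at 9.29 with the nearest array at 9.92) and for Hnrnpa2b1 ILMN_2615855 (0.756), and SD replicate 3 was high for Snrpd1 ILMN_1225361 (0.834). In muscle, SRT2104 replicate 3 was high for Hnrnpk ILMN_1245987 (0.835), Prpf8 ILMN_2637661 (0.73) and Srsf5 ILMN_2772274 (0.721). CR replicate 3 was low for Hnrnpa2b1 ILMN_2615855 (0.827, at 7.59 with the nearest array at 9.54), Hnrnph1 ILMN_1256671 (0.802) and Hnrnpl ILMN_2627690 (0.753, at 7.50 with the nearest at 8.78). SD replicate 1 was high for Hnrnph1 ILMN_1256671 (0.766) and for Hnrnpll on ILMN_2684732 (0.775) and ILMN_2768850 (0.771). The 9 muscle cases all fall on 3 arrays, each of which had the lowest median correlation with the other arrays of its own group.

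The effect of SRT2104 differed between tissues by the test of that difference for 14 member probes (log2, muscle change minus liver change). The change was lower in muscle for Hnrnpa2b1 (-1.94), Hnrnph1 (-1.24 on ILMN_2688923 and -0.98 on ILMN_1256671), Srsf5 (-1.19) and Hnrnpk (-1.12). It was also lower for Hnrnpa1 (-0.73 on ILMN_3096701), Prpf8 (-0.67 on ILMN_2637661), Hnrnpll (-0.54), Snrpd1 (-0.53), Hnrnpc (-0.42) and Srsf10 (-0.34 on ILMN_3019002). It was higher in muscle for Hnrnpl (+0.92), Snrpc (+0.40) and Snrpa (+0.39). The Snrpa probe, ILMN_2667509, changed by +0.12 in muscle and -0.28 in liver, neither of them called. For CR the tested differences were those of Hnrnpm (+0.57) and Hnrnpc (-0.59). Their causes were not tested.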

How the results depend on the processing

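Counts are called member probes or pairs. The 23 called members of CR against SD in liver and the 28 of SRT2104 against CR in liver stayed within 1.5 times under all alternatives run. With neqc the counts were 8 in place of 15 (muscle SRT2104 against SD), 8 in place of 13 (muscle SRT2104 against CR), 0 in place of 1 (muscle CR), 1 in place of 2 (liver SRT2104), 6 in place of 14 and 1 in place of 2 (tissue differences of SRT2104 and CR), and for probe pairs 4 in place of 11 (liver CR) and 5 in place of 9 (muscle SRT2104). The deposited scores as they are gave 8 tissue differences and 5 pairs for SRT2104, and median scaling gave 0 for muscle CR. Probes detected on all arrays gave 6 and 0 for SRT2104 and CR in muscle, 2 and 0 pairs, and 4 tissue differences, from fewer probes tested. Without a detection filter there were 7 for SRT2104 against CR in muscle, 6 tissue differences, and 80 between muscle and liver, from more probes tested. With only the diets compared, liver SRT2104 had 0, muscle CR 0 and muscle SRT2104 against CR 6, and the methods' t-test gave 0, 0 and 7, and 24 for muscle SRT2104 against SD. Over 12 muscle arrays the counts were 29 for SRT2104 against SD, 32 for SRT2104 against CR, 23 pairs for SRT2104, and 22 and 7 tissue differences of SRT2104 and CR. With the replicate block, counts were 1 for liver SRT2104, 0 for muscle CR and 0 pairs for muscle CR, and the paired fit moved no other count by more than 1.5 times. Apart from the construction of a setting, the cause was not tested.

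Leaving out 1 array at a time gave 0 to 2 (liver SRT2104), 9 to 24 (muscle SRT2104), 0 to 1 (muscle CR), 7 to 24 (muscle SRT2104 against CR), 9 to 19 and 2 to 6 (tissue differences), 6 to 12 pairs (liver CR), 2 to 22 pairs (muscle SRT2104) and 0 to 1 pairs (muscle CR). The highest muscle SRT2104 counts came without CR replicate 3. Of 67 changes of named probes, 57 kept sign and call with the scores as they are, 53 with neqc and 61 with the replicate block. Among named probes the sign turned only for 2 that were not called: Hnrnpll ILMN_2768850 under SRT2104 in muscle (-0.066 with scores as they are or unfiltered, -0.041 to 0.18 leaving out 1 array) and Srsf5 ILMN_3148662 under CR in muscle (0.041 over 12 arrays, -0.52 to 0.031 leaving out 1 array). Probes near the background limit what signal can show, above all Srsf10 and Prpf8 ILMN_2637661 in muscle.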

Other observations

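A few further RNA-binding proteins outside the 58 genes were called in CR liver, from lists whose called shares lay below the 26.7% of all probes (FET and related proteins 15.4% of 13 probes, tissue splicing regulators 13% of 23), apart from Srrm2 and Lsm3 of the other spliceosome proteins (34.4% of 61). Sfpq, a paraspeckle protein, was higher (+0.35, adjusted p = 0.00605), as were Tial1 (+0.43, adjusted p = 0.00152), which binds U-rich intron sequence, the nuclear speckle scaffold gene Srrm2 (+0.45, adjusted p = 0.00531) and Lsm3 of the U6 particle (+0.45, adjusted p = 0.00278). Ptbp1, a repressor that binds pyrimidine tracts, was lower (-0.25, adjusted p = 0.0346).

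On the standard diet 8 of 18 tissue splicing regulator probes were higher and 8 lower in muscle than in liver, beside 76.0% of all probes called. Ptbp1 was lower in muscle (-2.34 ± 0.14), and the muscle regulators Mbnl1 (+1.97), Celf2 (+2.38) and Rbm38 ILMN_2926155 (+4.28 ± 0.38) were higher. These genes were picked from the lists after their values were seen.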
